A study of Homo sapiens with 6 samples.

Results

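The genes described here are the checkpoint ligands CD274 (PD-L1), PDCD1LG2 (PD-L2), CD276, CD80, CD86, VTCN1 and ICOSLG of the B7 family, and CD47, a ligand that macrophages read. The 8 symbols were chosen by name with the CD274 and other differences between these very arrays already seen, so their values in this contrast are given as a description and carry no p-value. Every probe set that the platform table gave to exactly 1 of these symbols was taken, which made 26 probe sets of 54613, and 8 genes of the 19775 that had a probe set of their own. No probe set named a member together with another gene. ONS-76, an established human medulloblastoma cell line, was profiled on 6 Affymetrix arrays. In 3 of them (siKDM1A a, b and c) the cells had been transfected with 1 siRNA directed against KDM1A, a histone demethylase also known as LSD1, and in 3 (mock a, b and c) they had received the transfection reagent and no siRNA. The question of the comparison was which genes change when KDM1A is knocked down. The samples' annotation gives harvest at 48 h after knockdown, and the study describes separate transfections for each array and elsewhere gives a later time for the arrays. All arrays come from 1 cell line and 1 siRNA, so loss of KDM1A and delivery of an siRNA cannot be told apart in any difference below. The RNA was taken in bulk, so more RNA per cell and more cells carrying it cannot be told apart either.

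Ligands of the B7 family sit on the cell surface and set how strongly a T cell responds to antigen. PD-L1 and PD-L2 bind PD-1 on T cells and dampen their activity, CD80 and CD86 bind the activating receptor CD28 and the inhibitory receptor CTLA-4, and the ICOSLG product binds ICOS. B7-H3, the product of CD276, is displayed by many childhood brain tumours, and B7-H4, the product of VTCN1, restrains T cells. CD47 binds SIRP-alpha on macrophages and protects a cell from being engulfed. CD274 is a known target of interferon gamma, which acts through JAK kinases and IRF1, and is also induced through NF-kB and AP-1.

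The targeted gene was checked first. KDM1A stood at log2 9.50, 9.57 and 9.49 on mock arrays a, b and c and at 6.25, 6.34 and 6.31 on the siKDM1A arrays, 9.33-fold lower (limma adjusted p = 7.1e-07). The sample annotation names the target KDM5A beside LSD1. None of the 5 KDM5A probe sets passed the test, and the brightest differed by -0.27 (SE 0.09, limma adjusted p = 0.14). The one nearest the threshold differed by -0.39 (SE 0.10, limma adjusted p = 0.056), with all siKDM1A arrays below all mock arrays. Array medians lay between 5.09 and 5.16, with lower quartiles from 3.63 to 3.70 and upper quartiles from 7.05 to 7.16, and no array stood apart. As a check on the labelled cell type, 8 of 9 neural and medulloblastoma markers were measured, of which OTX2, ATOH1, SYP and EOMES lay below the median of every array, MAP2 rose and SOX2 fell. Summed on the linear scale, the 8 gave 5394 to 5560 on mock and 4508 to 4860 on siKDM1A arrays. TUBB3 and SOX2, at mock means of 11.83 and 10.66, made up most of this sum, and differed by -0.19 (not passing) and -0.43. None of the 5 leukocyte markers measured passed the test. PTPRC and CD14 lay below every array's median, CD3E and ITGAM above it at mock means of 5.32 and 5.71, and LAPTM5 above every upper quartile at 11.21. Summed, these 5, with LAPTM5 by far the largest, gave 2474 to 2522 on mock and 2367 to 2609 on siKDM1A arrays. None of the 4 fibroblast markers passed the test, with sums of 8522 to 8723 and 7492 to 8129. Nearly all of that sum was VIM, at a mock mean of 13.03 and a difference of -0.13. Of 3 endothelial markers PECAM1 alone rose, with sums of 305 to 339 and 294 to 344. What part these markers have in the differences below was not tested.

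CD274, PDCD1LG2 and CD47 were the members with higher signal after knockdown. In the fit over all probe sets 7 of the 26 member probe sets passed the threshold of 0.05 in the upward direction, the limma adjusted p being the criterion, and over all probe sets 2.18% did so (5.91% in either direction). These 7 were both probe sets of CD274, both of PDCD1LG2 and 3 of the 7 of CD47. None passed in the downward direction, in which 3.73% of all probe sets passed, and none had an unadjusted limma p under 0.05 there. On 11 member probe sets every siKDM1A array lay above every mock array, which held for 11.1% of all probe sets, and on the other 15 the groups overlapped. The median log2 difference was 0.18 over the 26 member probe sets and 0.014 over all probe sets. Since the genes were picked with this contrast in view, nothing is read from these shares. With the methods' one-way analysis of variance, adjusted over all probe sets, no member probe set passed, 0.504% of all probe sets passing upward. Without adjustment, 10 member probe sets, the 7 among them, had a p under 0.05 upward in it and none downward. For unadjusted p-values, here and in limma, no share over all probe sets is given, so nothing is read from those counts.

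**Figure D1:**
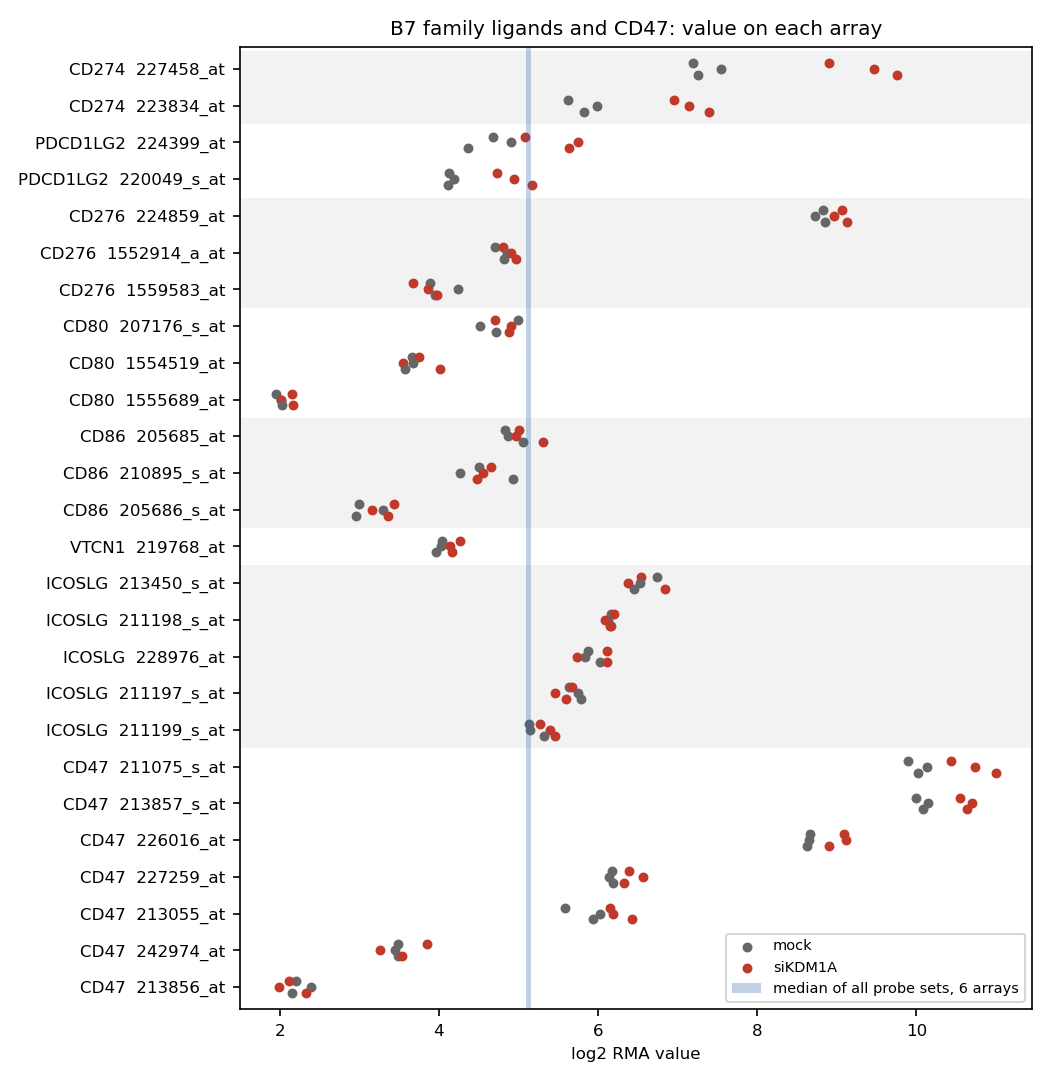
Log2 signal (x axis) of the 26 member probe sets (rows, by gene) on each of the 3 mock and 3 siKDM1A arrays, 1 point per array. The CD274 points fall into separate groups, mock at 7.19 to 7.54 and siKDM1A at 8.90 to 9.75 on the brighter probe set, whereas those of CD80, CD86 and ICOSLG overlap throughout.

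CD274, which encodes the PD-1 ligand PD-L1, had the largest difference of the 8 genes. On probe set 227458_at it stood at log2 7.19, 7.54 and 7.25 on mock arrays a, b and c, and at 8.90, 9.47 and 9.75 on siKDM1A arrays a, b and c. The groups did not overlap, and the lowest siKDM1A array lay 1.36 above the highest mock array. The means were 7.33 ± 0.19 and 9.37 ± 0.43 (SD, n = 3 each), a log2 difference of 2.05 (SE 0.20), or 4.13-fold. Its other probe set, 223834_at, stood at 5.62, 5.99 and 5.82 on the mock arrays and at 6.95, 7.14 and 7.39 on the siKDM1A arrays. These groups were also apart, by 0.96, and the difference was 1.35 (SE 0.13), or 2.55-fold. On both probe sets siKDM1A array a gave the lowest and array c the highest value of the knockdown group. Measured from the mock mean, arrays a, b and c were higher by 1.57, 2.14 and 2.42 on the first probe set and by 1.14, 1.33 and 1.59 on the second, so each array showed the smaller rise on the second. Both probe sets still passed the threshold whichever 1 of the 6 arrays was left out.

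The start of CD274 is printed here because interferon gamma, the best known inducer of the gene, works through factors whose short motifs can be searched for in it. The stretch covers the 250 bases before the start site in RefSeq, build GRCh38.p14, chr9:5450292-5450541 on the + strand, with matches to the searched motifs in capitals.
CD274: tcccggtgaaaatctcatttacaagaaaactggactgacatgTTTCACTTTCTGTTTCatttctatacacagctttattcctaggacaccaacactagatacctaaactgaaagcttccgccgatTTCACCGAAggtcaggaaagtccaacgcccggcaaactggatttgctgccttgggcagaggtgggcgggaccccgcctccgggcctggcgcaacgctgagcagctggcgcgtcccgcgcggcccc
The letters searched, on both strands, were GAAA, any 2 bases and GAAA for IRF factors, TTC, any 3 bases and GAA for STAT factors, TGANTCA for AP-1, and GGGA, any base and TTTCC for NF-kB. The first capitals hold overlapping IRF matches, TTTCACTTTC and TTTCTGTTTC, which begin 208 and 202 bases before the start, and the second hold a STAT match, TTCACCGAA, at 125 bases. They overlap no match of another motif. Of 35116 promoters of the same length 3.02% held the IRF letters and 6.57% the STAT letters, and the AP-1 and NF-kB letters, found in 6.57% and 0.527%, were not in this window. RefSeq promoters matched 7 of the 8 genes, PDCD1LG2 being the exception, and no other member's window held any of these letters. A match describes the sequence and does not show binding.

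PDCD1LG2, the neighbouring gene on chromosome 9, encodes PD-L2, the other PD-1 ligand. Probe set 224399_at stood at 4.68, 4.90 and 4.36 on mock arrays a, b and c and at 5.08, 5.75 and 5.63 on siKDM1A arrays a, b and c. The groups were apart by only 0.18, which separated mock b from siKDM1A a. The difference was 0.84 (SE 0.19), or 1.79-fold, from 4.65 ± 0.27 to 5.49 ± 0.36. Probe set 220049_s_at stood at 4.13, 4.19 and 4.12 on the mock arrays and at 4.73, 4.94 and 5.17 on the siKDM1A arrays. Here the groups were apart by 0.54, with mock arrays that differed little among themselves. The difference was 0.80 (SE 0.11), or 1.74-fold, close to that of the first probe set. Both mock means lay below the median of every array, so that the gene was dim before knockdown. The second probe set still passed the threshold whichever array was left out. The first did so in 2 of the 6 cases and lost its call without siKDM1A b, siKDM1A c, mock a or mock c.

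CD47, whose product tells macrophages not to engulf the cell, is no B7 gene but serves as a checkpoint ligand too. Its brightest probe sets, 213857_s_at and 211075_s_at, had mock means of 10.07 ± 0.07 and 10.02 ± 0.12, above every array's upper quartile. On 213857_s_at the mock arrays stood at 10.00, 10.14 and 10.08 and the siKDM1A arrays at 10.55, 10.70 and 10.63. The groups were apart by 0.41, with a difference of 0.55 (SE 0.09), or 1.47-fold. On 211075_s_at they stood at 9.90, 10.13 and 10.02 and at 10.43, 10.74 and 11.00, a difference of 0.70 (SE 0.14), or 1.63-fold. All siKDM1A arrays were again above all mock arrays, here by 0.29. On 226016_at, the third probe set past the threshold, the values were 8.66, 8.65 and 8.63 on mock and 9.09, 9.11 and 8.90 on siKDM1A arrays, a difference of 0.39 (SE 0.09), or 1.31-fold. Of these calls, that of 213857_s_at held whichever array was left out. The call of 211075_s_at was lost without siKDM1A b, mock a or mock c, and that of 226016_at in every case but the one without siKDM1A c. The call of 226016_at was also lost with median centring and with the replicate letters as a block. The remaining 4 CD47 probe sets did not pass the threshold. Among them 213055_at and 227259_at had all siKDM1A arrays above all mock arrays, by means of 0.40 (SE 0.13) and 0.25 (SE 0.09). The other two, 242974_at and 213856_at, differed by 0.07 (SE 0.14) and -0.11 (SE 0.11) with overlapping arrays, and in mock cells both were under every array's lower quartile.

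CD276, which encodes B7-H3, was the one member besides CD274 and CD47 above every array's upper quartile in mock cells. Its probe set 224859_at stood at 8.82, 8.72 and 8.85 on the mock arrays and at 9.06, 8.96 and 9.13 on the siKDM1A arrays. The arrays did not overlap, but the difference of 0.26 (SE 0.09) did not pass the threshold. Its dimmer probe sets, 1552914_a_at and 1559583_at, differed by 0.10 (SE 0.09) and -0.20 (SE 0.12), with overlapping arrays.

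CD80 and CD86 were dim. All 3 probe sets of CD80 and all 3 of CD86, the ligands of CD28 and CTLA-4, lay below the median of every array in mock cells, and their groups overlapped on each. Differences ran from 0.08 to 0.13 for CD80 and from 0.01 to 0.23 for CD86, with standard errors of 0.09 to 0.15. The brightest CD86 probe set, 205685_at, stood at 4.83, 4.87 and 5.06 on the mock arrays and at 5.00, 4.97 and 5.31 on the siKDM1A arrays. VTCN1, which encodes the inhibitory ligand B7-H4, had 1 probe set, 219768_at, at 4.04, 4.03 and 3.96 on mock and 4.26, 4.14 and 4.17 on siKDM1A arrays. Its groups did not overlap, and its difference of 0.18 (SE 0.08) did not pass the threshold. ICOSLG, the ligand of ICOS, had 5 probe sets with mock means from 5.20 to 6.57 and differences from -0.15 to 0.18, all with overlapping arrays. A near-identical copy of ICOSLG exists in the genome, so its signal may not be its own alone.

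How far probe sets of 1 gene disagreed differed between the members. The differences spanned 0.81 on the log2 scale over the 7 probe sets of CD47, from -0.11 to 0.70, and 0.69 over the pair of CD274. They spanned 0.45 for CD276, 0.33 for ICOSLG, 0.23 for CD86, and 0.04 each for PDCD1LG2 and CD80. In direction the probe sets of CD274 and PDCD1LG2 were at one, as were those of CD80 and CD86, none of which passed. CD47 and CD276 each had 1 probe set with a negative difference, at -0.11 and -0.20, and ICOSLG had 211197_s_at at -0.15 and 211198_s_at at -0.0018. None of these 4 passed the threshold. Those of CD47 and CD276 were dim, at mock means of 2.25 and 4.03, below the median of every array. Of the 13 member probe sets below the median of every array in mock cells, the pair of PDCD1LG2 passed the threshold.

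**Figure D2:**
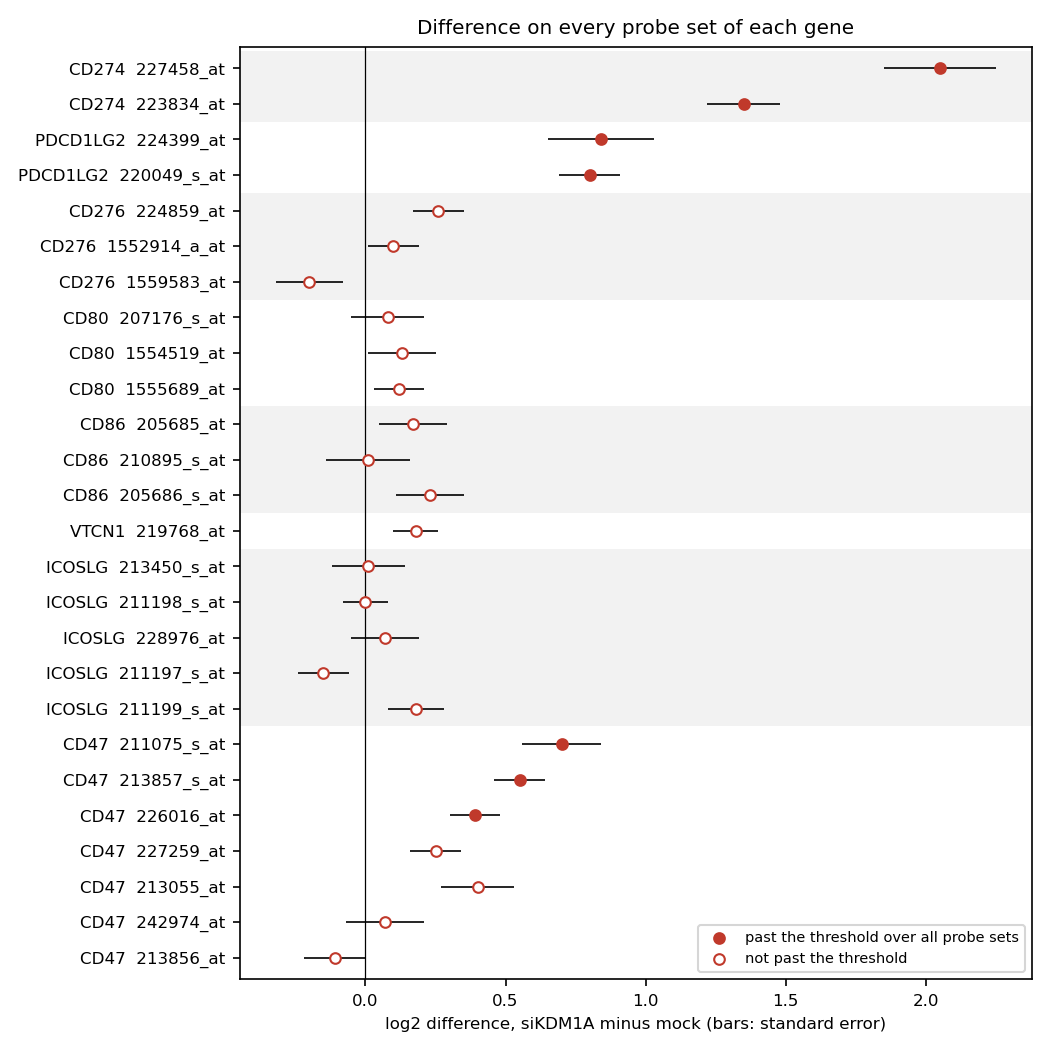
Log2 difference, siKDM1A minus mock (x axis), of each of the 26 member probe sets (rows), with bars of 1 standard error from the limma fit. CD274 lies at 2.05 and 1.35 and PDCD1LG2 at 0.84 and 0.80, while the 7 CD47 probe sets spread from -0.11 to 0.70.

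Among 19774 other genes, those whose log2 profile over the 6 arrays, taken from the mock mean, lay closest to CD274 on 227458_at were INHBA, SERPIND1, LINC00973, IL1B and IFI44L. Likeness was the root mean square distance between the profiles, 0.21, 0.21, 0.23, 0.23 and 0.26 on the log2 scale. INHBA encodes an activin subunit, IL1B the cytokine interleukin 1 beta, SERPIND1 the protease inhibitor heparin cofactor II, and IFI44L is an interferon-stimulated gene. Picked for this likeness, they were higher by 1.96, 1.86, 1.90, 1.76 and 2.21 after knockdown.

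The genes around the ligands were then followed in 7 lists of 117 genes, chosen with earlier results known, of which 110 had a probe set of their own. Each gene was taken by its brightest probe set. BTN2A2 and NT5E did not pass by it and are not counted as risen, but 1 other probe set of each did. Those differed by 0.37 and 0.46 (limma adjusted p = 0.045 and 0.011). Of the 110 genes 16 rose, or 14.5%, 2 fell, or 1.82%, and 92 did not pass the test (limma adjusted p), whereas 3.45% of all genes rose and 5.46% fell. The median difference was 0.085 over the lists and 0.007 over all genes. With the methods' analysis of variance, adjusted likewise, 2 of the 110 passed, JUN and BTN3A1.

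Of the receptors and binding partners of the ligands, 11 of 12 were measured, with a median difference of 0.07, 1 rose and none fell. The gene that rose was RGMB, whose product is a BMP co-receptor that also binds PD-L2, from 7.56 ± 0.06 to 8.09 ± 0.15, or 1.45-fold (limma adjusted p = 0.015). On all 4 of its probe sets every siKDM1A array lay above every mock array, which held for 11.1% of all probe sets. Mean differences were 0.53 to 0.68, and the gaps between the groups 0.07 to 0.34. Of the 4, 2 passed the threshold and the others did not (limma adjusted p = 0.054 and 0.093). The call of the brightest was lost without mock c (limma adjusted p = 0.08). CD28, CTLA4 and ICOS, receptors of T cells, differed by 0.09, 0.07 and 0.02 (limma adjusted p = 0.63, 0.75 and 0.93). SIRPA, the receptor for CD47, was bright in these cells, at 8.41 ± 0.12 and 8.44 ± 0.18, and its difference was 0.03 (SE 0.11, limma adjusted p = 0.94). For PDCD1, which encodes PD-1, no probe set of its own was in the table used.

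Among the other B7 relatives and butyrophilins, all 14 were measured, with a median of 0.085, and 3 rose, the butyrophilins BTN3A1, BTN3A2 and BTN3A3, which present phosphoantigen signals to gamma delta T cells. BTN3A3 went from 4.93 ± 0.21 to 5.73 ± 0.10, BTN3A2 was 1.56-fold and BTN3A1 1.37-fold higher (limma adjusted p = 0.0049, 0.0065 and 0.014). These paralogs are near-identical in sequence, so probes may not tell them apart. The call of BTN3A1 was lost whichever mock array was left out, with a limma adjusted p of at most 0.058, and its other probe set differed by 0.31 (limma adjusted p = 0.12).

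Of the factors and signalling genes known to induce CD274, 21 of 25 were measured, with a median of 0.07, 5 rose and 1 fell. JUN, an AP-1 subunit, stood at 9.55, 9.55 and 9.54 on mock arrays a, b and c and at 10.97, 10.96 and 10.92 on siKDM1A arrays a, b and c, 2.64-fold higher (limma adjusted p = 4.4e-05). Its 4 probe sets all rose, by 1.29 to 1.75. The AP-1 genes FOS and JUNB and the NF-kB genes NFKB2 and RELB rose by 0.96, 0.49, 0.60 and 0.43 (limma adjusted p = 0.0089, 0.017, 0.0064 and 0.043). FOS and NFKB2 were dim, with mock means of 4.51 and 4.97, below the median of every array. For NFKB2 the other probe sets differed by 0.09 and 0.15 and did not pass. RELB lost its call without each single array in turn (limma adjusted p from 0.051 to 0.14), and JUNB without siKDM1A a, mock a, mock b or mock c (at most 0.068). IRF9, a transcription factor of the type I interferon response, fell by 0.59, from 6.95 ± 0.10 to 6.35 ± 0.21 (limma adjusted p = 0.019), with the call lost without siKDM1A a, siKDM1A b, mock a or mock c (at most 0.084). IFNGR1, the ligand-binding chain of the interferon gamma receptor, differed by 0.46 (SE 0.12), just outside the threshold at a limma adjusted p of 0.054, and passed without siKDM1A c (0.036). IRF1, JAK2 and MYC differed by -0.01, -0.16 and -0.16 (limma adjusted p = 0.97, 0.57 and 0.54). The other IRF1 probe set had siKDM1A arrays above mock arrays and differed by 0.28 (limma adjusted p = 0.083).

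Of 15 interferon gamma inducible genes, all measured and with a median of 0.15, 3 rose and none fell. GBP1, a guanylate-binding GTPase, stood at 6.00, 6.32 and 6.45 on the mock arrays and at 7.75, 7.97 and 6.98 on the siKDM1A arrays, 2.49-fold higher (limma adjusted p = 0.011). Here siKDM1A c was the lowest of the knockdown group, while for CD274 it was the highest. Of the 4 GBP1 probe sets 3 rose. PSMB8, an immunoproteasome subunit, and the chemokine gene CXCL11 were 1.53-fold and 1.45-fold higher (limma adjusted p = 0.048 and 0.043). Both lost their call without each single array in turn, and CXCL11 lay below every array's lower quartile in mock cells.

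Of 15 genes for trafficking, glycosylation and turnover of the PD-L1 protein, 14 were measured, with a median of 0.03, 1 rose and none fell. B3GNT3, a glycosyltransferase that modifies PD-L1, went from 6.02 ± 0.19 to 6.92 ± 0.16, or 1.86-fold (limma adjusted p = 0.0034). CMTM6, which keeps PD-L1 at the cell surface, differed by 0.25 (SE 0.09, limma adjusted p = 0.15).

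Among 20 other inhibitory and costimulatory ligands, all measured and with a median of 0.205, 2 rose and none fell. TNFSF18, the ligand of GITR, went from 4.55 ± 0.10 to 5.14 ± 0.08 (limma adjusted p = 0.0067). NECTIN3, a ligand of TIGIT, was, on the brightest one, 1.41-fold higher (limma adjusted p = 0.043), while its other probe set differed by -0.19. Of the fits that left out 1 array, the NECTIN3 call held in the one without siKDM1A c (up to 0.14 in the others), and it was also lost with median centring (0.064).

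**Figure D3:**
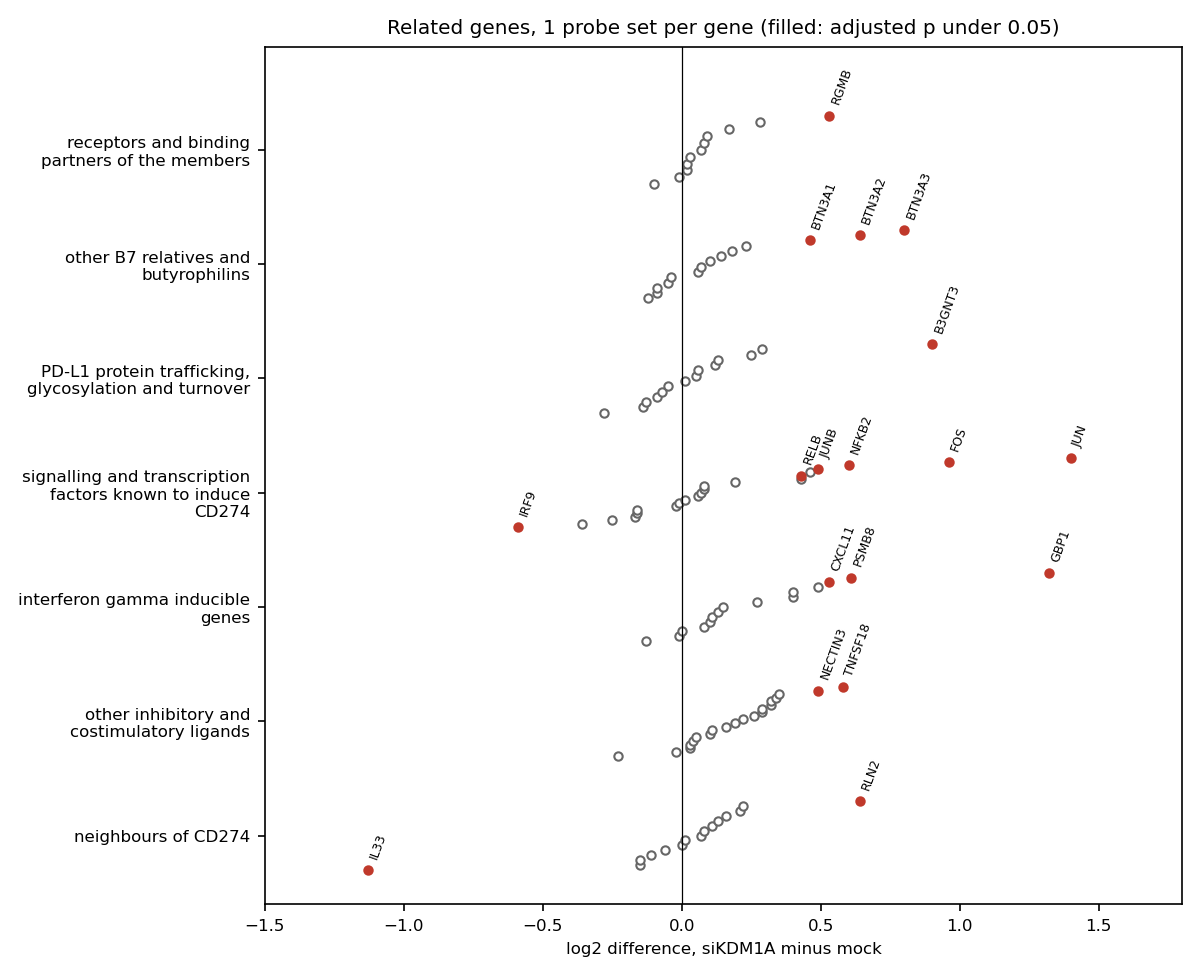
Log2 difference, siKDM1A minus mock (x axis), of the measured genes of the 7 lists (rows), 1 point per gene by its brightest probe set. Filled points passed the limma test and carry the gene's name. They are 16 on the right of 0, led by JUN at 1.40 and GBP1 at 1.32, and 2 on the left, IL33 at -1.13 and IRF9 at -0.59.

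CD274 and PDCD1LG2 lie side by side on chromosome 9, and the genes around them were looked at in the order RefSeq gives. Of 16 neighbours in the list 15 were measured, with a median of 0.07, 1 rose and 1 fell. The nearest genes on either side, PLGRKT next to CD274 and RIC1 next to PDCD1LG2, differed by 0.11 (SE 0.09) and 0.16 (SE 0.11) (limma adjusted p = 0.57 and 0.51). RLN2, a relaxin gene 3 places before CD274, went from 5.03 ± 0.21 to 5.66 ± 0.24 (limma adjusted p = 0.033), with the call lost without siKDM1A a, siKDM1A b, mock a or mock c (at most 0.14). RLN1, which lies between RLN2 and PLGRKT, differed by 0.01. IL33, a cytokine gene 7 places after CD274, stood at 7.44, 7.40 and 7.52 on mock arrays a, b and c and at 6.74, 6.08 and 6.15 on siKDM1A arrays a, b and c. It fell by 1.13 on the log2 scale (SE 0.16, limma adjusted p = 0.0038), opposite in sign to CD274 and PDCD1LG2.

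**Figure D4:**
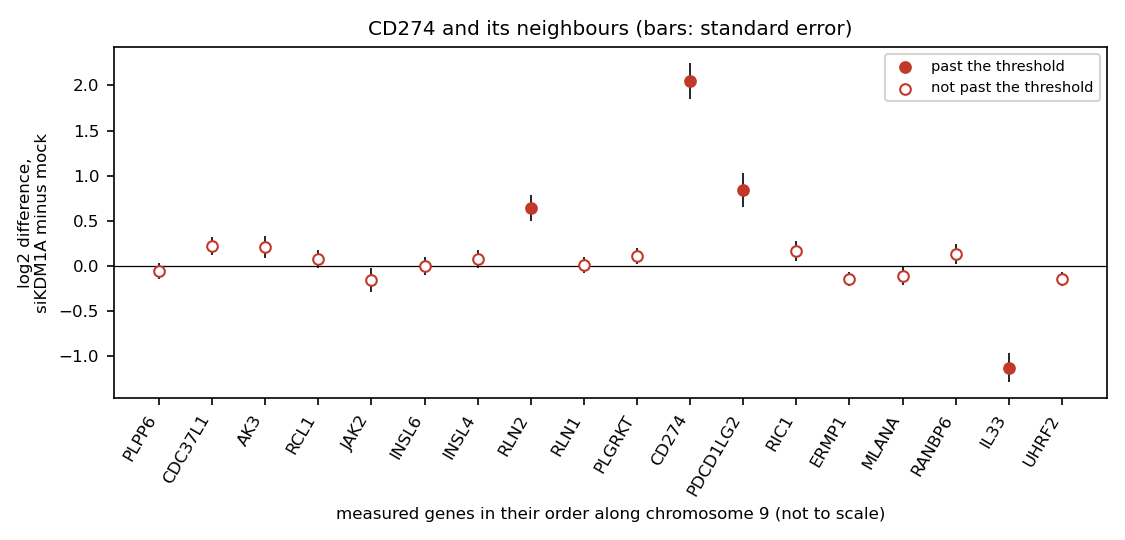
Log2 difference, siKDM1A minus mock (y axis), of genes around CD274, by the brightest probe set, with bars of 1 standard error. Genes follow RefSeq's order along chromosome 9 (x axis, not to scale), and genes without a value here are left out. CD274 at 2.05 and PDCD1LG2 at 0.84 stand above PLGRKT at 0.11 and RIC1 at 0.16, and IL33 is at -1.13.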

How the data were processed

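RNA of 3 siKDM1A and 3 mock ONS-76 samples was hybridised to Affymetrix U133 Plus 2.0 arrays. The authors normalised the arrays with RMA in the Partek software and deposited 1 log2 value per probe set. For its version, not given in the sources used here, no value is stated. RMA gives all arrays a common intensity distribution, so a shift shared by most genes would be largely removed. Scanner files were not used here, and no detection call was made. The sample annotation gave the groups.

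The deposited log2 values were fitted with lmFit and tested two-sided with eBayes, untrended, from limma 3.58.1 under R 4.3.3, with Benjamini-Hochberg adjustment over 54613 probe sets, 62 Affymetrix controls being left out. A probe set passed at an adjusted p under 0.05. Precision is limited by having 3 arrays per group. Symbols came from the platform annotation, in which 41091 probe sets named 1 gene, 1801 several and 11721 none. Outside the members a gene was taken by its brightest probe set. The columns held no values other than those of the 6 arrays. No arrays held identical values, and correlations within a group were 0.994 to 0.9976.

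The members, the related gene lists and the promoter motifs were chosen with earlier results of these data known. Genes named were all members, KDM1A, KDM5A, up to 5 passing genes per list with the largest differences, a fixed set of receptors, inducers, neighbours and CMTM6, and the 5 genes most like CD274. RLN1, BTN2A2 and NT5E were named after their values were seen. The fit was repeated after centring on medians, after cyclic loess, without dim probe sets, with a trended and robust prior, with the replicate letters as block, without each array in turn, with the one-way analysis of variance named by the study, a minimum fold, and other choices of probe set. Figures were drawn with matplotlib 3.10.9.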

Additional observations from a re-analysis of the deposited data

How the results depend on the processing

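The CD274 differences kept their direction and their side of the threshold under each limma alternative, ranging without 1 array from 1.86 to 2.28 on 227458_at and from 1.24 to 1.46 on 223834_at. With the methods' one-way analysis of variance, adjusted alike, 275 probe sets passed upward and 401 downward, 0 of the members, and 2 of the related genes upward and 0 downward. With median centring, 1048 probe sets passed upward and 2443 downward in limma. Among them were 6 of the members upward, and by gene 12 related genes passed upward and 2 downward. Without the probe sets whose names end in _x_at or _s_at, 4 member probe sets passed. That filter itself takes out PDCD1LG2 220049_s_at and CD47 211075_s_at and 213857_s_at, which passed in the main fit. No share of the remaining probe sets is given, so nothing is read from the lower count. Leaving out 1 array gave 609 to 1103 probe sets upward and 694 to 1563 downward. Members passing numbered 4 to 6 (4 without siKDM1A b, mock a or mock c), and related genes 8 to 14 upward (10, 9 and 8 without siKDM1A a, mock a and mock c) and 1 to 2 downward (1 without siKDM1A a, siKDM1A b, mock a or mock c). Over all probe sets, more than a 1.5-fold change in the upward count came without mock a (698), mock b (712) or mock c (609), and in the downward count without siKDM1A a (1253), mock a (1101), mock b (1022) or mock c (694). Each fit without 1 array rests on 5 and assumes that both groups vary alike.

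Small differences changed sign, that of ICOS ranging without 1 array from -0.0196 to 0.0926, of SIRPA from -0.0699 to 0.1108 and of IRF1 from -0.0819 to 0.0401. That of ICOS was -0.0044 with median centring, -0.013 with cyclic loess, and -0.0196 and -0.0019 without mock b and mock c. That of SIRPA was -0.0025 with median centring, and -0.0699 and -0.0334 without siKDM1A a and mock b. That of IRF1 was 0.0485 with cyclic loess, and 0.0081, 0.0396 and 0.0401 without siKDM1A b, siKDM1A c and mock c. Among the members, CD86 210895_s_at (0.0062) ran from -0.1441 to 0.1877 over the alternatives, ICOSLG 213450_s_at (0.0124) from -0.1154 to 0.1182 and ICOSLG 211198_s_at (-0.0018) from -0.0299 to 0.0271. CD80 207176_s_at turned to -0.0259 without mock b, and CD47 242974_at to -0.0775 without siKDM1A a. The cause of these changes was not tested.

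Correlations of deviations between arrays of the same replicate letter were 0.111, 0.23 and -0.135 for a, b and c. Between arrays of different letters they ran from -0.317 to 0.181. These values do not settle whether the letters pair the arrays. With the letters as a block, 1080 probe sets passed upward and 1639 downward, with 6 of the members and 15 related genes upward and 2 downward. IFNGR1 then passed (limma adjusted p = 0.046), and RELB and NECTIN3 did not (0.067 and 0.055). Low signal limits the dim members: 13 member probe sets lay below the median of every array in mock cells, and 4 of these below the lower quartile. Of the related genes that rose, BTN3A3, FOS, NFKB2, TNFSF18, RLN2 and CXCL11 also lay below the median of every array in mock cells.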
